A study of Mus musculus with 2 samples.

Results

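The genes of the ephrins, Eph receptors, netrins, slits and their receptors were compared between Cx30 KO and WT mice in the striatum on day 1 after MPTP. Members were chosen by symbol alone. They are all probes, control spots aside, whose gene symbol is that of an ephrin (*Efna*, *Efnb*), an Eph receptor (*Epha*, *Ephb*), a netrin or netrin-G (*Ntn*, *Ntng*), an Unc5 receptor, a slit or a Robo receptor, or is *Dcc* or *Neo1*. This gave 41 genes with 102 probes, of 36998 gene names with 56605 probes on the array. Another 8 genes whose names begin with the same letters but belong to other families (*Slitrk1* to *Slitrk6*, *Unc50* and *Unc5cl*) were left out. Of the 41 genes, 37 were detected on at least 1 array and 34 on both, where detected means that the scanner software marked the spot as well above background. *Efna4*, *Epha1*, *Ntn4* and *Unc5d* were well above background on neither array and have no ratio here.

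The study asked how mice that lack connexin 30 (Cx30), a gap junction protein of astrocytes encoded by *Gjb6*, respond to MPTP, a toxin that damages the dopaminergic neurons projecting to the striatum. Each genotype has 1 single-colour array, hybridised with RNA pooled from the striata of 2 male mice aged 8 weeks, after 4 injections of 20 mg/kg MPTP spaced 2 h apart. Strain labels read C57BL/6J for WT and Cx30-LacZ for Cx30 KO, but by the methods both genotypes were bred from heterozygous parents, with the non-mutant offspring as WT to control for background. Both pools come from MPTP-treated mice, so the values compare genotypes after the toxin and do not measure the response to it. With 1 array for each genotype there is no spread between mice and no test, and precision is limited by the number of arrays. *Gjb6* gave 1788 ± 179 on the WT array and 111 ± 11.6 on the array labelled Cx30 KO, which is 15.4-fold lower. None of the 41 genes (0) lies on chromosome 14, which carries *Gjb6*.

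These families steer growing axons and keep working in the adult brain, at synapses and in blood vessels. Ephrins are held at the cell surface, ephrin-A by a lipid anchor and ephrin-B by a membrane-spanning segment, and bind Eph receptor tyrosine kinases on the neighbouring cell, so that both cells can receive a signal. Netrins are secreted, attract axons through Dcc and neogenin (*Neo1*) and repel them through the Unc5 receptors, while the netrin-G proteins stay on the membrane and bind the synaptic proteins Lrrc4c and Lrrc4. Slits are secreted repellents that act on Robo1 and Robo2. In the striatum, cues of these families have known parts in the guidance of dopaminergic and cortical axons.

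Values are processed signals in arbitrary units, with the error that the scanner software gives for a spot. The log2 ratio is Cx30 KO minus WT after each array was scaled to its 75th percentile, so values below 0 mark genes that were lower in Cx30 KO. A gene is represented by its brightest probe among those well above background. A gene met the criteria when its ratio was at least 1.5 with a Z-score of at least 2.0, or at most 0.66 with a Z-score of at most −2.0. The Z-score places a log2 ratio among the 1000 probes nearest in signal. Between probes of 1 gene the log2 ratios had an SD of 0.26 (7147 genes), and between spots of 1 probe an SD of 0.06. Neither value covers differences between mice.

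Of the 37 detected members 33 did not meet the criteria in either direction and 4 did. The netrin receptor gene *Unc5b* and the netrin-G gene *Ntng1* were lower in Cx30 KO, which is 2 of 37 genes (5.41%) against 3.39% of all 22008 genes. The slit gene *Slit1* and the netrin gene *Ntn5* were higher, which is again 2 of 37 genes (5.41%), against 2.37% of all genes. Both shares rest on few genes and lie near those of the array as a whole. *Ntn5* was well above background in Cx30 KO only, so it was counted through the array where it is high. Among the 34 members detected on both arrays, 2 were lower, against 2.47% of such genes, and 1 (*Slit1*) was higher, against 1.61%. The methods do not name the probes behind the Z-score, and with a Z-score over all probes *Unc5b*, *Ntng1* and *Slit1* no longer met the criteria, which left 0 members lower and 1 (*Ntn5*) higher, against 2.07% and 2.28% of all genes. By the ratio limits alone, without the Z-score, the same 2 members were lower against 6.21% of all genes, and 4 were higher (*Epha10* and *Ntng2* in addition) against 7.22%. No ephrin and no Eph receptor gene (0 of 20) met the criteria in either direction at its brightest probe. Of the 37 members 17 had a log2 ratio below 0 and 20 above, against 9999 below and 12009 above over all genes. The median was 0.03 for the members and also 0.03 for all genes. The members' median is the value of *Dcc*, which is read here by a repeat probe described below. Without that probe it was again 0.03. Scaling by the array medians turned the members' median to −0.01. Among the 34 members detected on both arrays, 31 (91.2%) had a log2 ratio within 0.5 of no difference, against 88.2% of 20305 genes. Their median absolute log2 ratio was 0.20, against 0.18 for those genes.

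**Figure D1:**
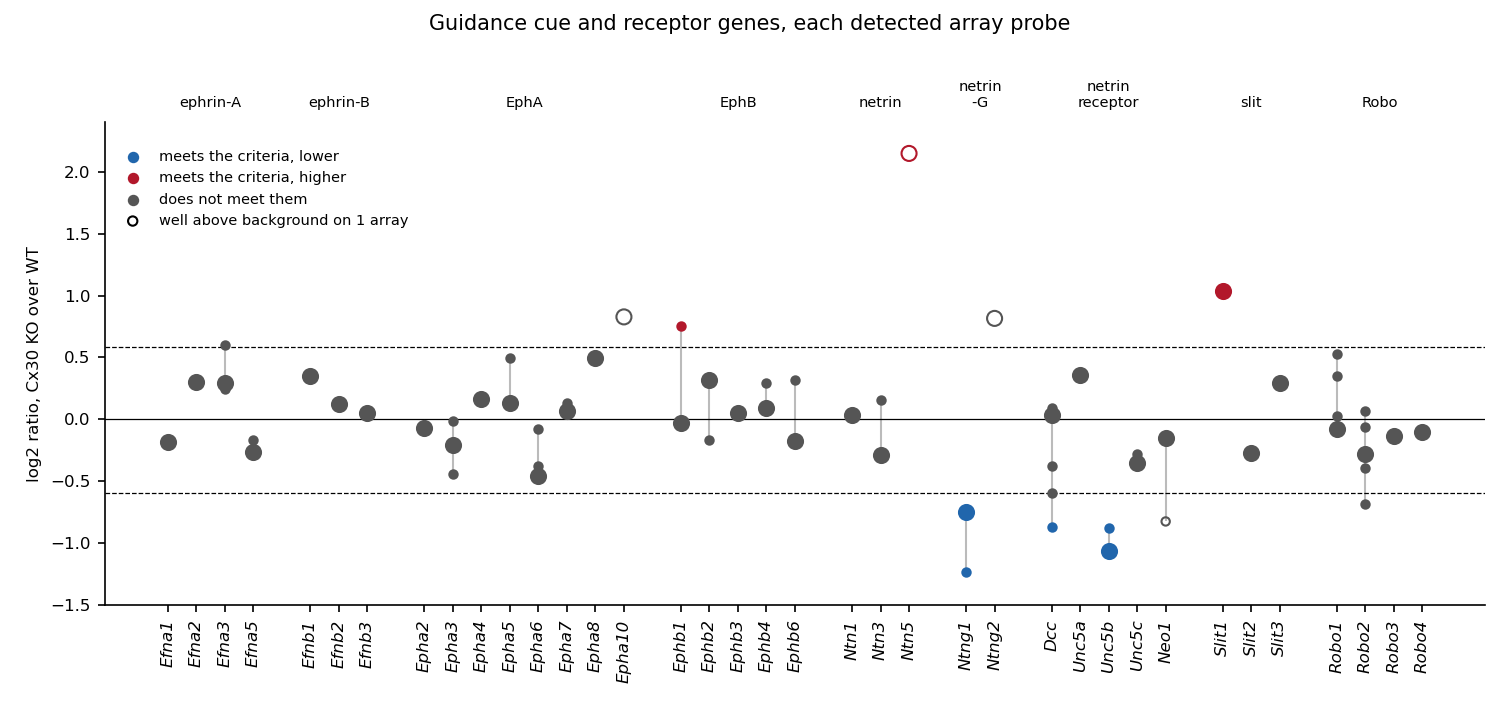
Log2 ratio of Cx30 KO over WT (vertical axis) for each detected probe of the 37 detected genes, grouped by family along the horizontal axis; large circles are the probes that represent a gene, small circles its other probes, open circles probes well above background on 1 array only, and dashed lines the ratio limits of 1.5 and 0.66. *Unc5b* and *Ntng1* lie below the lower line with each of their detected probes, *Slit1* and *Ntn5* lie above the upper line with a single probe each, and the 4 Robo genes lie just below 0 at their large circles, while 3 dimmer *Robo1* probes lie above 0.

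RNA of whole striata was measured, so fewer cells of a type and less RNA per cell cannot be told apart. Markers of several cell types differed between the pools. These marker genes were chosen after their values were seen, so their counts describe the pools and are not a test. All 5 markers of cortical excitatory neurons were higher in Cx30 KO, with summed signals of 169.8 (WT) and 1346 (Cx30 KO), and *Neurod6*, *Slc17a7* and *Emx1* were not well above background in WT. All 8 oligodendrocyte markers were lower, with sums of 178023 in WT and 104008 in Cx30 KO, as were 8 of 8 microglia markers, with 35271 and 24450. Of 8 endothelial markers 6 were lower and 2 higher, with 19012 and 15982. The 5 detected markers of oligodendrocyte precursors were all lower (median log2 ratio −0.37), while astrocyte (4 lower, 3 higher), mural (4 lower, 2 higher) and choroid plexus markers (3 lower, 2 higher of 6, with 1 not detected) went both ways. The 9 markers of striatal spiny neurons, the defining cells of the labelled tissue, were bright on both arrays (491715 and 485627 in sum), with 5 lower and 4 higher. For the genes described next, the part of these differences in the result was not tested.

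Among the secreted netrins, *Ntn1*, the founding member of the family and the main ligand of Dcc, differed least between the pools. Its probe (NM_008744, chr11:68022986-68023045, in mm9 as are all probe positions here) read 105 ± 11.5 in WT and 102 ± 11.0 in Cx30 KO. The log2 ratio was 0.03, and it turned to −0.02 after scaling by the array medians and to −0.0083 under quantile normalisation. As *Ntn1* is the middle of the 5 detected netrin and netrin-G genes, the median of these genes had the same values and has no settled direction. *Ntn3*, a netrin closely related to *Ntn1*, had 119 ± 12.7 and 92.5 ± 10.1 at its brighter probe (log2 ratio −0.29), while its other probe gave 0.16. These probes of *Ntn3* pointed in opposite directions, and neither met the criteria.

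*Ntn5*, a less studied member of the family, was detected in Cx30 KO only. Its probe for NM_001289692 (chr7:52949867-52949926) had 13.4 ± 4.87 in WT, where it was not well above background, and 56.4 ± 7.0 in Cx30 KO. Against the lowest WT signal counted as well above background this is 3.00-fold higher in Cx30 KO, spot error aside. The signal is dim, and the measured log2 ratio of 2.15 was 0.60 with normexp background correction, under which the gene still met the criteria. A probe for NM_001033356 was not well above background on either array, so the call rests on 1 probe.

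*Ntng1* encodes netrin-G1, which is anchored on axons and binds Lrrc4c on the receiving dendrite. Its brighter probe (ENSMUST00000133268, chr3:109946348-109946407) had 682 ± 68.3 in WT and 387 ± 38.8 in Cx30 KO (log2 ratio −0.75, Z-score −2.36). The probe for NM_030699 (chr3:109584210-109584269) had 175 ± 18.3 and 70.8 ± 8.54, a log2 ratio of −1.24 with a Z-score of −3.06. Both detected probes therefore met the criteria for lower genes, and 3 further *Ntng1* probes were not well above background on either array. *Lrrc4c*, which encodes its partner, had 4212 ± 421 in WT and 4185 ± 419 in Cx30 KO (log2 ratio 0.06). *Ntng2*, the related gene whose product binds Lrrc4, was barely above background. Its signal was 11.1 ± 4.32 in WT, not well above background, and 18.6 ± 4.10 in Cx30 KO, too close to the detection limit of the WT array to give a fold.

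The 5 detected netrin receptor genes spanned log2 ratios from −1.07 to 0.36, with a median of −0.15, 3 below 0 and 2 above (4 and 1 under scaling by the array medians or normexp correction). *Unc5b*, a repulsive netrin receptor that is also known from the tip cells of growing blood vessels, read 1577 ± 158 in WT and 717 ± 71.8 in Cx30 KO at its brighter probe (NM_029770, chr10:60225398-60225457). The log2 ratio was −1.07, the ratio 0.478 and the Z-score −3.87. A second probe for the same transcript (chr10:60227361-60227420) had 739 ± 74.1 and 381 ± 38.4, with a log2 ratio of −0.88 (Z-score −2.79). The gap of 0.18 between these probes is smaller than the pooled SD given above, though not than the median SD of 0.14. Both probes met the criteria for lower genes. Among 8 endothelial markers, *Flt1* met the same criteria at its brightest probe (log2 ratio −0.93), but its 3 detected probes reached from −0.93 to 0.52. The other 7 markers lay between −0.47 and 0.58. Medians were −0.77 for oligodendrocyte, −0.53 for microglia and 3.22 for cortical excitatory neuron markers. The part of any of these cell types in the *Unc5b* values was not tested.

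The other detected Unc5 genes went different ways. *Unc5a*, a repulsive receptor mostly of neurons, had 5597 ± 560 in WT and 6827 ± 683 in Cx30 KO (log2 ratio 0.36). *Unc5c*, a repulsive receptor known from the guidance of cerebellar and spinal axons, had 273 ± 27.6 and 203 ± 20.6 at its brighter probe and 103 ± 11.4 and 81.0 ± 9.15 at its dimmer one. These are log2 ratios of −0.36 and −0.28, and none of the 3 detected probes of *Unc5a* and *Unc5c* met the criteria. *Unc5d* was not well above background.

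*Neo1*, which encodes a receptor shared by netrins and repulsive guidance molecules, had 599 ± 60.1 in WT and 512 ± 51.4 in Cx30 KO (log2 ratio −0.15). Its dim second probe (AK084609) had 22.9 ± 4.88 in WT and 12.3 ± 3.97, not well above background, in Cx30 KO. Against the lowest Cx30 KO signal counted as well above background this is 1.26-fold lower, spot error aside.

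*Dcc*, the attractive netrin receptor, is the member whose value depended most on the probe. The brightest probe under its name had 59837 ± 5984 in WT and 58276 ± 5828 in Cx30 KO (log2 ratio 0.03, or −0.01 after scaling by the array medians). This probe holds 18 copies of the unit GAA in its 60 bases, and the array's annotation places it on chromosome 7 (chr7:68417162-68417221), not on the chromosome of *Dcc*. A run of 16 bases of it occurs in 20 other probes that carry 19 names, with WT signals from 35.3 upward and a median of 40494. On the whole array 88 of 56605 probes lie on another chromosome than their gene, and this is the 1 such probe among the 102.

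The 5 *Dcc* probes placed on its own chromosome gave lower values in 3 cases. The brightest of them (NM_007831) had 216 ± 22.1 in WT and 113 ± 12 in Cx30 KO (log2 ratio −0.87, Z-score −2.49), which meets the criteria for lower genes. The others for this transcript had 158 ± 16.7 and 116 ± 12.5 (log2 ratio −0.38), and 82.2 ± 9.55 and 51.7 ± 6.77 (log2 ratio −0.60). The probes for AK090377 and ENSMUST00000126030, with signals under 50 on both arrays, had log2 ratios of 0.03 and 0.09. Over these 5 probes the mean was −0.34 with an SD of 0.41, so they spread more than probes of a gene usually did. With the GAA probe left out, a choice made after its values were seen, *Dcc* met the criteria. The members lower in Cx30 KO then numbered 3 of 37 in place of 2. Over all genes, with every probe off its gene's chromosome left out, the share was 3.40%. The median of the 5 netrin receptor genes was then −0.36.

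**Figure D2:**
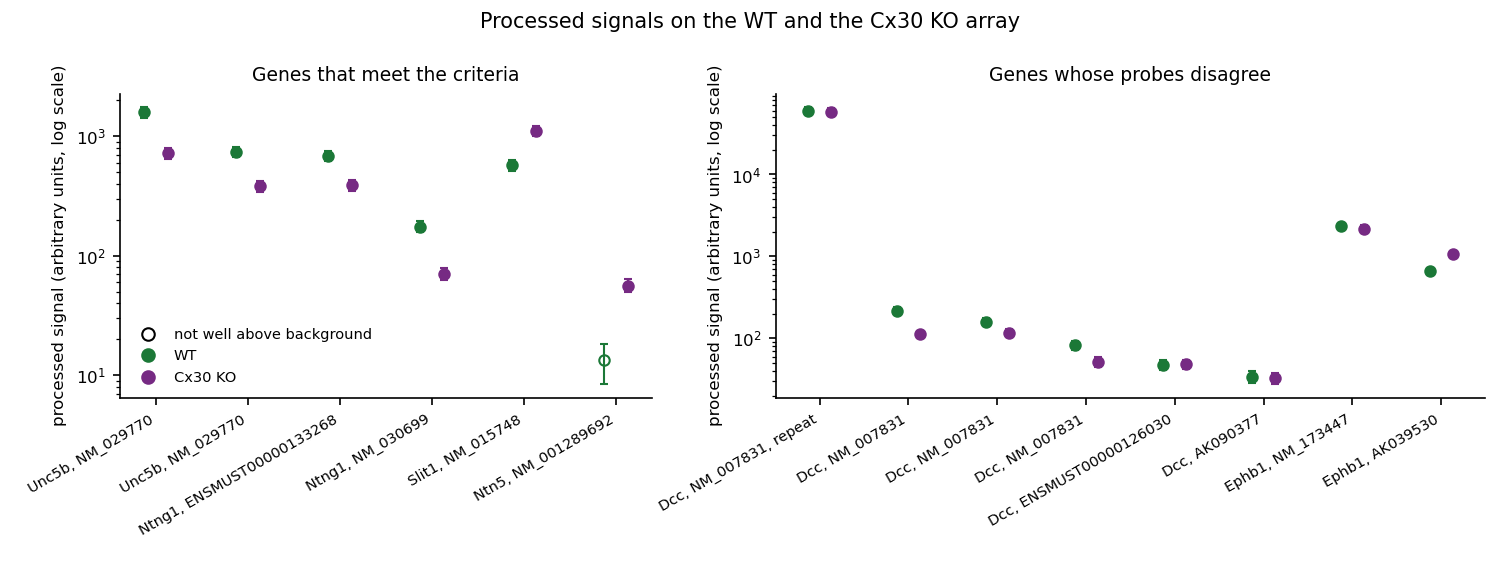
Processed signal in arbitrary units on a log scale (vertical axis) for each detected probe of the genes that met the criteria and for all detected probes of *Dcc* and *Ephb1*; green is WT, purple Cx30 KO, bars are the scanner software's error for a spot and the open circle is a value not well above background. The bars of WT and Cx30 KO do not overlap for *Unc5b*, *Ntng1* and *Slit1*. These genes were picked by their ratios and the bars show no spread between mice, so the gaps add no further evidence. The *Dcc* probe with GAA repeats is nearly equal on both arrays, and 3 of the other 5 *Dcc* probes are lower in Cx30 KO.

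The sequences just before the transcription start are shown for *Unc5b*, *Ntng1* and *Ntn5*, the netrin and netrin receptor genes that met the criteria, to show the start regions of both lower genes and of 1 of the 2 higher ones. The sequence of *Slit1*, the other higher gene, is not shown. Sequences are RefSeq's 250 bases upstream of the start in GRCm38, printed on the strand of the gene from 5′ to 3′, with each CG in capitals. *Unc5b* (chr10:60831582-60831831, minus strand) has 27 CG and 66.8% G or C, more CG than 91.4% of 32851 mouse promoters. *Ntng1* (chr3:110143473-110143722, minus strand) has 25 CG and 62.4% G or C, more CG than 89.3% of promoters. *Ntn5* (chr7:45683772-45684021, plus strand) has 2 CG and 52.8% G or C, more CG than 18.8% of promoters. Members are CG-rich as a whole, with a median of 17 CG over 41 promoters of 36 genes against 6 over all promoters. The letters TATAAA, searched on both strands, occur in none of the 3 (0) and in 12.4% of all promoters.
Unc5b: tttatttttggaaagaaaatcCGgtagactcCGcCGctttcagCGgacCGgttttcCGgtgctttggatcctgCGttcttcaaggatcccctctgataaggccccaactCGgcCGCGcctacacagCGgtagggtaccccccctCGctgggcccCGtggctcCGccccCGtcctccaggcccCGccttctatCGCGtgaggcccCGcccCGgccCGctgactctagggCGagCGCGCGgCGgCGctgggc
Ntng1: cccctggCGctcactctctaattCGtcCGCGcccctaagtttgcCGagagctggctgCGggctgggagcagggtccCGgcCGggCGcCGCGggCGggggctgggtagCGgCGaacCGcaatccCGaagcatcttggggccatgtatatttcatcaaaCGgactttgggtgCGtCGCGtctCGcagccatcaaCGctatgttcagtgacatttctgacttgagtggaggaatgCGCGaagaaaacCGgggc
Ntn5: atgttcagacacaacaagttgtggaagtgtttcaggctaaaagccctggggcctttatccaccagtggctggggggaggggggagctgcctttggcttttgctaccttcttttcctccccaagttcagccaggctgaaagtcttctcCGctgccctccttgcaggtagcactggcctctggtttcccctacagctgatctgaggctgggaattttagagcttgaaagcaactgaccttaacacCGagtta

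Of the slits, *Slit1*, a secreted repellent made mostly in the nervous system, was higher in Cx30 KO. Its only probe (NM_015748, chr19:41674749-41674808) had 571 ± 57.3 in WT and 1113 ± 111 in Cx30 KO (log2 ratio 1.03, Z-score 3.45). The signal was well above background on both arrays, and the log2 ratio lay between 0.98 and 1.04 under the alternatives tried, although with the Z-score over all probes the gene did not meet the criteria. No second probe reads this gene. *Slit2* and *Slit3*, which encode the other repellents of the family and are also made outside the brain, did not meet the criteria. *Slit2* had 75.3 ± 8.51 and 59.3 ± 6.87 (log2 ratio −0.27), and its 6 other probes were not well above background. *Slit3* had 812 ± 81.4 and 949 ± 95.0 (log2 ratio 0.30).

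The 4 Robo genes had log2 ratios between −0.28 and −0.08 at their brightest probes, below 0 under each scaling tried, and none met the criteria. *Robo1*, a main slit receptor of axons, had 1126 ± 113 in WT and 1016 ± 102 in Cx30 KO at the probe for NM_019413 (log2 ratio −0.08). Its 3 dimmer detected probes had 0.03, 0.35 and 0.52, and the mean over its probes was 0.21, so its probes do not share a direction. *Robo2*, which shares the slits as ligands with *Robo1*, had 1182 ± 118 and 924 ± 92.5 (log2 ratio −0.28). Of its 7 detected probes 6 were lower, between −0.68 and −0.07, and 1 had 0.07. *Robo3*, which controls the crossing of the midline, had 661 ± 66.3 and 574 ± 57.6 (log2 ratio −0.13). *Robo4*, the member of the family expressed by endothelial cells, had 937 ± 93.8 and 830 ± 83.1 (log2 ratio −0.10). The endothelial markers had a median of −0.17.

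No ephrin gene met the criteria. Their median absolute log2 ratio of 0.27 is that of *Efna5* and lies close to the pooled SD of 0.26 between probes. Over all genes detected on both arrays, as the detected ephrins were, it was 0.18. Of 7 detected, 2 had a log2 ratio below 0 and 5 above, with a median of 0.12, and these counts held under each scaling. Among the lipid-anchored ephrin-A genes, *Efna1*, which is also known from blood vessels, had 205 ± 21.1 in WT and 172 ± 17.7 in Cx30 KO (log2 ratio −0.18). *Efna5*, which maps axons in many sensory projections, had 963 ± 96.4 and 761 ± 76.3 (log2 ratio −0.27), and its 3 detected probes were all lower. *Efna2*, with a similar role in sensory maps, had 141 ± 14.7 and 166 ± 17.0 (log2 ratio 0.30). *Efna3*, a further lipid-anchored ligand of EphA receptors, had 661 ± 66.3 and 773 ± 77.4 (log2 ratio 0.30), with its 3 probes between 0.24 and 0.60. The ephrin-A genes thus split into *Efna1* and *Efna5* below 0 and *Efna2* and *Efna3* above it.

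All 3 ephrin-B genes had log2 ratios above 0, of which only that of *Efnb1* exceeded the SD among probes of 1 gene. *Efnb1*, a membrane-spanning ephrin with roles in cell sorting, had 907 ± 90.8 in WT and 1099 ± 110 in Cx30 KO (log2 ratio 0.35). *Efnb2*, the arterial partner of *Ephb4*, had 1630 ± 163 and 1692 ± 169 (log2 ratio 0.12). *Efnb3*, a midline barrier to corticospinal axons, had 4437 ± 444 and 4374 ± 437 (log2 ratio 0.05 after scaling).

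Of the 13 detected Eph receptor genes, 5 had log2 ratios below 0 and 8 above, with a median of 0.07, and again the counts held under each scaling. Among the EphA genes, *Epha8*, a receptor of ephrin-A ligands in the midbrain, came nearest to the criteria. It had 1143 ± 114 in WT and 1533 ± 153 in Cx30 KO (log2 ratio 0.50, Z-score 1.83). *Epha6*, another ephrin-A receptor of the brain, was at the other end, with 185 ± 19.0 and 128 ± 13.4 at its brightest probe (log2 ratio −0.46) and with 3 probes between −0.46 and −0.08. *Epha4*, which binds ephrins of both classes and is abundant in forebrain neurons and astrocytes, had 3606 ± 361 and 3847 ± 385 (log2 ratio 0.16).

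The genes of 4 further ephrin-A receptors had log2 ratios between −0.21 and 0.13. *Epha2* had −0.07 at its single probe, *Epha3* had −0.21 with probes between −0.44 and −0.02, *Epha5* had 0.13 with 4 detected probes between 0.12 and 0.49, and *Epha7* had 0.07 with 4 probes between 0.04 and 0.13. *Epha10*, which encodes a receptor without kinase activity, was detected in Cx30 KO only, with 16 ± 4.51 in WT and 27.1 ± 4.6 in Cx30 KO. Against the lowest WT signal counted as well above background this is 1.44-fold higher, spot error aside. The measured log2 ratio of 0.83 was 0.11 with normexp background correction, and the Z-score of 0.65 did not meet the criteria.

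Among the EphB genes, *Ephb1*, which sends retinal axons to the same side of the brain, depended on the probe. The brightest probe (NM_173447, chr9:101824549-101824608) had 2338 ± 234 in WT and 2175 ± 218 in Cx30 KO (log2 ratio −0.03). A probe for AK039530 (chr9:101941528-101941587) had 660 ± 66.1 and 1061 ± 106, a log2 ratio of 0.76 with a Z-score of 2.45, which meets the criteria for higher probes. Of all 33910 detected probes 2.07% did so, and this and the *Slit1* and *Ntn5* probes were the 3 among the members' 74. *Ephb2*, a synaptic receptor that interacts with NMDA receptors, had 180 ± 18.8 and 214 ± 21.9 at its brighter probe (log2 ratio 0.32), and 171 ± 17.7 and 145 ± 15.0 at the other (log2 ratio −0.17). *Ephb3*, which acts with *Ephb2* in commissural axons, had a log2 ratio of 0.05, and *Ephb4*, the venous receptor of ephrin-B2, had 0.09. *Ephb6*, a receptor without kinase activity, had 6419 ± 642 and 5414 ± 541 (log2 ratio −0.17), with 0.32 at a dim second probe.

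**Figure D3:**
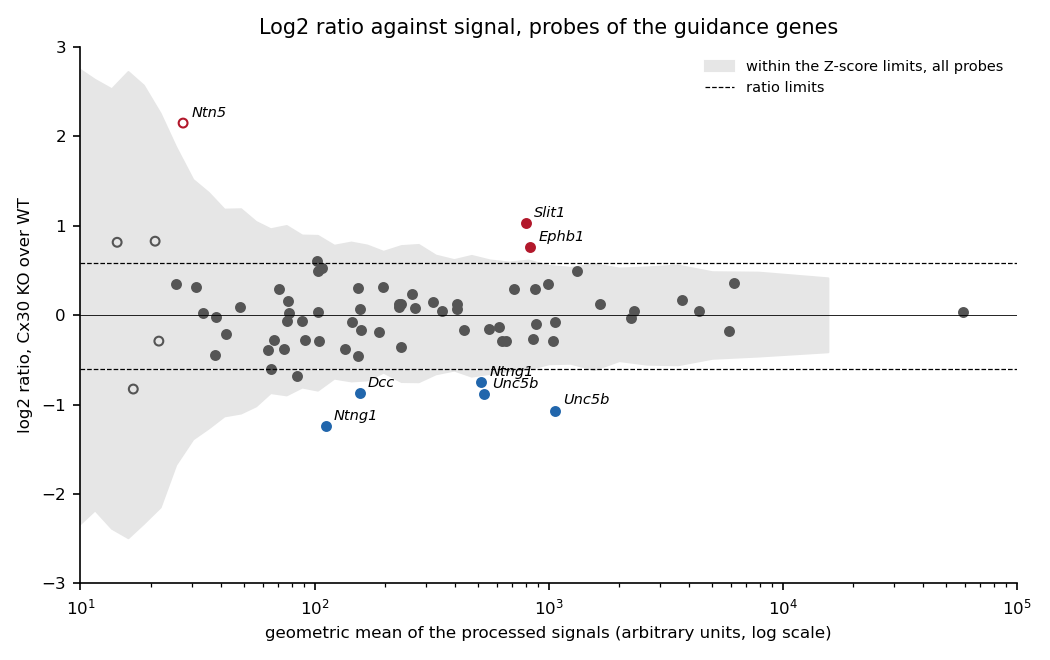
Log2 ratio of Cx30 KO over WT (vertical axis) against the geometric mean of both processed signals on a log scale (horizontal axis) for the 74 detected probes of the guidance genes; the grey band spans the log2 ratios within the Z-score limits among all probes of that signal, dashed lines are the ratio limits and open circles were well above background on 1 array only. Named probes met the criteria: 3 higher probes of *Slit1*, *Ephb1* and *Ntn5*, and 5 lower probes of *Unc5b*, *Ntng1* and *Dcc*.

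Of the 37 detected members 18 had several detected probes. For 7 of these all probes were lower in Cx30 KO, for 4 all were higher, and for 7 they pointed both ways. The log2 ratios of a gene's probes spanned more than 0.5 in 5 genes, *Dcc*, *Ephb1*, *Neo1*, *Robo1* and *Robo2*. These probes lie at different places of the gene and can read different transcripts. The other 19 genes, *Slit1* and *Ntn5* among them, were read by 1 detected probe each. At the level of probes, 5 of 74 met the criteria for lower and 3 for higher probes, against 2.93% and 2.07% of all 33910 detected probes. As the 5 lower probes belong to 3 genes, they are not independent of one another.

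Ligands and receptors that bind one another were then set side by side. Of 78 listed pairs 64 had both sides detected, with 9 pairs lower on both sides, 23 higher on both sides and 32 in opposite directions. Pairs share members, so these counts are not independent. Over all detected genes 12009 log2 ratios were above 0 and 9999 below. No pair (0) met the criteria on both sides, and 5 did on 1 side. With the GAA probe of *Dcc* left out, *Ntn1* and *Dcc* (log2 ratios 0.03 and −0.87) turned from higher on both sides to opposite, which gave 22 pairs higher on both sides, 33 opposite and 6 that met the criteria on 1 side. *Slit1* was higher by a log2 ratio of 1.03 while its receptors *Robo1* and *Robo2* had −0.08 and −0.28, so that ligand and receptor differed by 1.11 and 1.32. *Ntn1* and *Unc5b* differed by 1.1, with the receptor lower and the ligand near 0. *Robo4* and *Unc5b*, endothelial receptors that bind each other, were both below 0 (−0.10 and −1.07). For *Ntng1* and *Lrrc4c* the difference, ligand minus receptor, was −0.81.

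Pairs of ephrins and Eph receptors went both ways. Of 32 detected ephrin-A and EphA pairs, 6 were lower on both sides, 10 higher on both sides and 16 opposite. Of 15 ephrin-B and EphB pairs, 9 were higher on both sides and 6 opposite. Each ephrin-A was listed with each EphA receptor, and each ephrin-B with each EphB. The counts within these classes therefore follow from the directions of the single genes and add no information. Of the pairs that bind across the classes, *Efnb2* and *Efnb3* with *Epha4* were higher on both sides, while *Efna5* with *Ephb2* was opposite. The difference within a pair had a median of 0.28 over all 64. Under the other scalings the number of opposite pairs was 30 to 33, and of pairs lower on both sides 9 to 13.

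**Figure D4:**
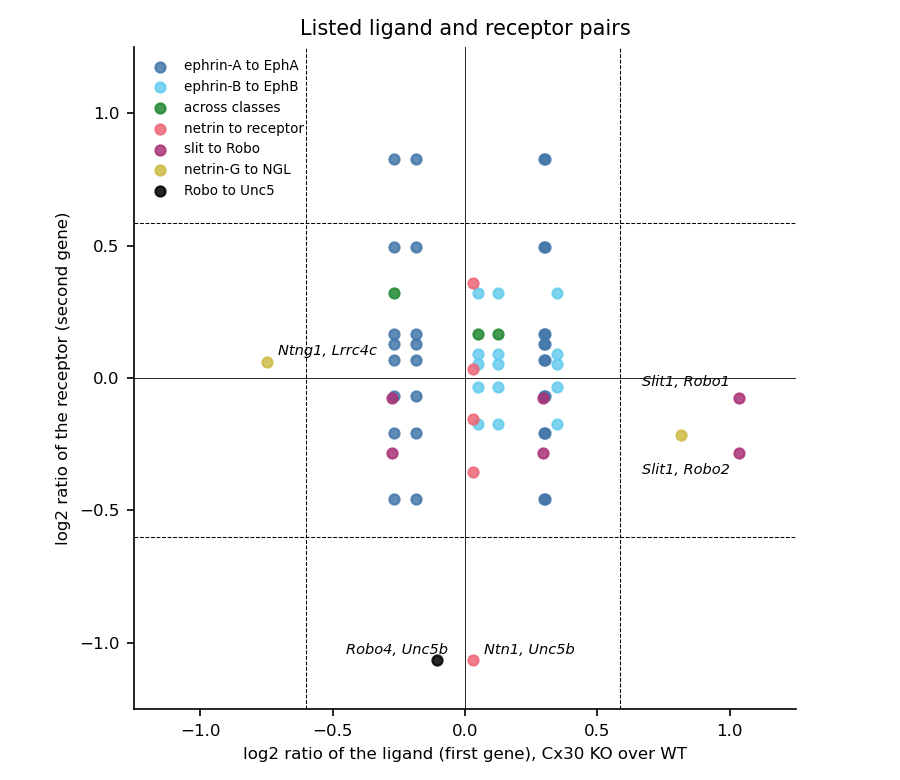
Log2 ratio of Cx30 KO over WT of the receptor (vertical axis) against that of its ligand (horizontal axis) for listed pairs, coloured by class, with dashed lines at the ratio limits; *Ntn5* has no listed receptor. No pair lies beyond the dashed lines on both axes, and *Slit1* with *Robo1* and *Robo2* at the right and *Unc5b* with *Ntn1* and *Robo4* at the bottom lie farthest from the centre.

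Genes that act downstream or beside these receptors were compared in the same way. All 24 Eph and ephrin signalling partners were detected, 11 with log2 ratios below 0 and 13 above, with a median of 0.05. *Tiam1*, an exchange factor for Rac recruited by EphA and EphB receptors, was the single one to meet the criteria, with 1112 ± 111 in WT and 1704 ± 170 in Cx30 KO. Its log2 ratio was 0.69, and its 3 probes lay between 0.50 and 0.89.

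Of 22 netrin signalling partners 21 were detected, 8 below 0 and 13 above, with a median of 0.06. *Dock1*, a Rac exchange factor that acts below Dcc, was lower in Cx30 KO, with 1343 ± 134 in WT and 524 ± 52.6 in Cx30 KO. Its log2 ratio was −1.29, a larger difference than that of any guidance gene measured on both arrays, and its 3 probes lay between −1.29 and −0.71. *Dock1* is also known from the engulfment of dying cells. The oligodendrocyte and microglia markers, which were lower as well, had medians of −0.77 and −0.53, and their part in this value was not tested. *Draxin*, a secreted ligand of Dcc, was not well above background.

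All 17 slit and Robo signalling partners were detected, 11 below 0 and 6 above, with a median of −0.17. *Srgap1*, which encodes a GTPase-activating protein that binds Robo1, was lower in Cx30 KO, with 3105 ± 310.5 in WT and 1846 ± 185 in Cx30 KO at its brightest probe. The log2 ratio was −0.68, but its 3 detected probes reached from −0.68 to 0.01. Over the partner lists 2 of 62 detected genes were lower by the criteria and 1 was higher, against 3.39% and 2.37% of all genes.

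**Figure D5:**
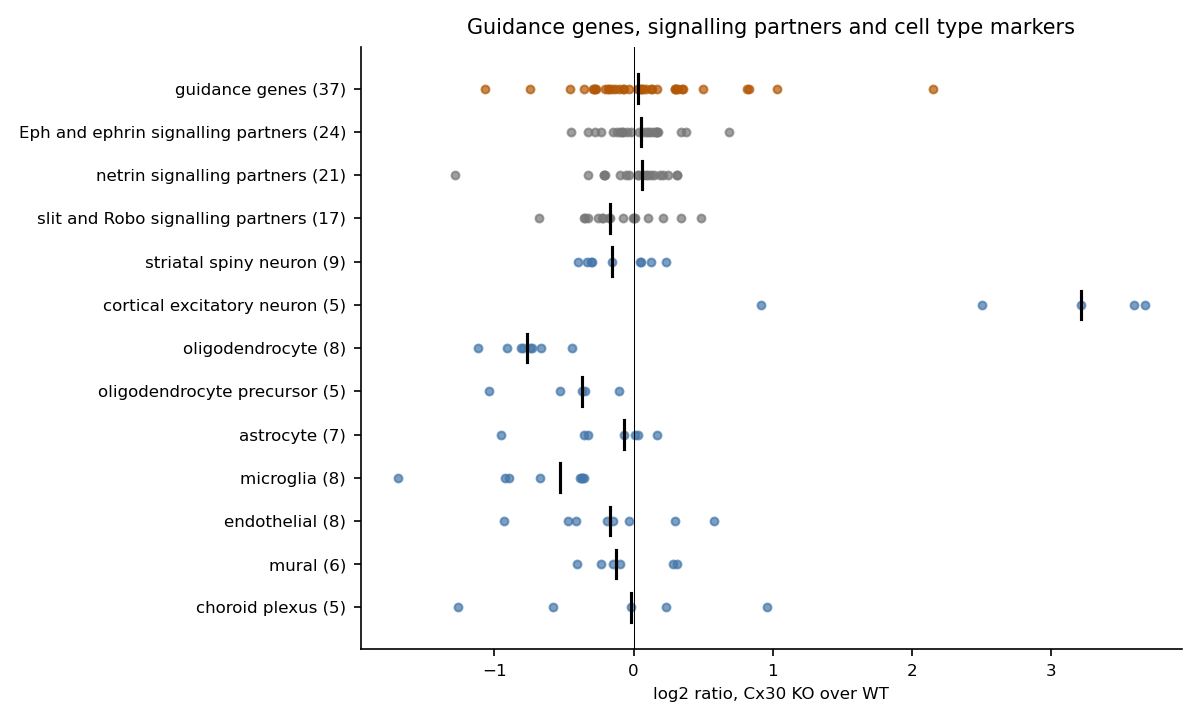
Log2 ratio of Cx30 KO over WT (horizontal axis) for each detected gene of the guidance families, of their signalling partners and of cell type marker lists, with the number of genes in parentheses and the median as a black bar. The guidance genes and their partners centre near 0, while the cortical excitatory neuron markers lie to the right (median 3.22) and the oligodendrocyte (median −0.77) and microglia (median −0.53) markers to the left.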

How the data were processed

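Striatal RNA of 2 pooled mice for each genotype was hybridised to 1 array of 60-mer probes. The authors extracted the spots with Agilent Feature Extraction, given as 9.5.1.1 in the methods and as 10.7.1.1 in the file headers, on mm9 positions. The processed signals they deposited are linear intensities, background-subtracted and detrended within each array and not normalised between arrays. The authors also deposited a table of intensities, 99.991% of which differ by no more than 1% from processed signals after quantile normalisation, with a median of 41.2 in each column.

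Control and outlier spots were left out, and the log2 signals of a probe's spots were averaged. Each array was scaled to its 75th percentile (401 in WT, 382 in Cx30 KO). Probes were detected when at least 50% of their spots were well above background, which held for 56.6% and 58.2% of probes. The lowest such signals were 19.8 and 17.4, and no probe (0) was saturated. For a probe detected on 1 array the fold is taken against that lowest signal, or the probe's own signal if larger. Spot errors do not enter it. Of the members' probes, 92 of 92 whose gene has a strand in the RefSeq table lie on that strand. The criteria are those of the methods, which name no set of probes for the Z-score. No mm9 annotation was used here, so probes were not placed in exons. Older symbols were updated for 1897 probes. Python 3.11.15, numpy 2.4.6, pandas 2.3.3, R 4.3.3 and limma 3.58.1 (normexp) were used. The code for the calls was run on simulated data. Differences beyond the ratio limits were planted there in genes detected on both arrays. The simulation held no variation between mice, so it does not test the calls made here.

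Values for each array are given for members with a probe that met the criteria, with probes over 0.5 apart, detected on 1 array only, or in a pair with a called gene, and for other members where their role is described. Partner genes are named when they met the criteria, and marker genes were chosen after their values were seen. One marker gene is not reported here. Members, pairs and lists were chosen with earlier results of these data known. Alternatives were other scalings, background correction, filters, Z-scores, ratio limits and the mean of a gene's probes. Arrays of saline-treated mice were not analysed here.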

Additional observations from a re-analysis of the deposited data

How the results depend on the processing

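*Unc5b* and *Ntng1* were called lower, and *Slit1* and *Ntn5* higher, under quantile normalisation, scaling by array medians, normexp correction, the authors' table, the mean of a gene's probes and a Z-score over the 200 nearest probes. Log2 ratios stayed between −1.11 and −0.97 for *Unc5b*, −0.99 and −0.68 for *Ntng1*, 0.98 and 1.04 for *Slit1*, and 0.60 and 2.15 for *Ntn5*. With the Z-score over all probes 0 members were lower and 1 (*Ntn5*) was higher, and over all genes 455 were lower and 502 higher. With ratio limits of 2 and 0.5, 1 member (*Unc5b*) was lower and 2 (*Ntn5* and *Slit1*) were higher, with 428 lower and 340 higher over all genes. With the ratio limits alone 4 were higher, adding *Epha10* and *Ntng2*, and the backgrounds were 6.21% lower and 7.22% higher. With genes detected on both arrays only, 1 (*Slit1*) was higher, since *Ntn5* is then not tested, and over all genes 502 were lower and 328 higher. The members' median was −0.014 with scaling by array medians, −0.0324 without a filter on detection and −0.00024 with genes detected on both arrays. The median of the netrins and netrin-Gs, 0.03 as reported, was −0.0083 under quantile normalisation and in the authors' table, −0.0153 with array medians, −0.10 without the filter and −0.29 with genes detected on both arrays. Leaving out probes on another chromosome than their gene, chosen after seeing the data, added *Dcc* to the lower genes, against 3.40% of all genes. Using no filter on detection added *Unc5d*, which is not above background, against 2.42% of all genes. Of 101 values of single members under the alternatives 93 moved by less than the pooled SD of 0.26 between probes, and no called one (0) changed direction. Why the others moved was not tested. Many of the 93 could not move. The filters and the removal of probes on another chromosome mostly keep a gene's brightest probe, and the mean equals it for genes with 1 detected probe. The authors' table nearly repeats quantile normalisation, so the 93 are not independent checks. No paired analysis was possible because each genotype has 1 array, and for that reason no replicate could be left out.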

Other observations

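Another family of neuronal surface proteins, the Slitrk genes, shares part of its name with the slits and was left out of the counts above. Slitrk proteins are synaptic adhesion molecules with leucine-rich repeats. All 6 genes were detected, 5 had log2 ratios below 0 and none (0) met the criteria, with a median of −0.28. *Slitrk1* had signals of 350 (WT) and 215 (Cx30 KO), a log2 ratio of −0.63, and *Slitrk2* had 58.5 and 37.0 (log2 ratio −0.59). *Slitrk3* was the one above 0, with 1015 and 1056 (log2 ratio 0.13).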
